A study of Mus musculus with 21 samples.

Results

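The genes described here encode the semaphorins, plexins, neuropilins, ephrins, Eph receptors, Slits, Robos and netrins, the ligands and receptors first known for steering growing axons. They were chosen by gene symbol alone, and 63 of the 43923 loci in each deposited table carried such a symbol. These were 7 class 3 semaphorins, 13 membrane semaphorins, 2 neuropilins, 9 plexins, 5 A ephrins, 3 B ephrins, 9 EphA receptors, 5 EphB receptors, 3 Slits, 4 Robos and 3 netrins. Netrins and Slits with semaphorins and ephrins make 34 ligands, and the other 29 genes encode receptors.

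RNA of mouse keratinocytes was sequenced in 21 libraries, 3 in each of 7 groups. The HFSCs group held wild type hair follicle stem cells purified by FACS, a further wild type group held cultured HFSCs, and the group they were set against held total epidermal cells. The remaining groups came from 3C cultures, a culture of total epidermal cells that favours hair follicle stem cells, kept for 10 to 14 days. They were the CD34+ and the CD34neg fraction, both sorted for alpha-6 integrin, and cultures given dorsomorphin or cyclopamine for 48 h. Dorsomorphin inhibits BMP type I receptors, cyclopamine inhibits Smoothened in the Hedgehog pathway, and the series text names dorsomorphin as depleting HFSCs and cyclopamine as enriching them. An untreated 3C culture was not part of the inhibitor table, so a difference there can lie with either compound. The labels give no age, sex or strain, no genotype for the 3C groups, and do not tell from which mice or cultures the libraries of a group came, so the authors' p-values may cover no more than technical spread.

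Every level below is 1 FPKM value (fragments scaled to transcript length and to mapped fragments) per locus and population in the authors' deposited tables, which give no value per library. No standard deviation can therefore be set beside a level. Higher and lower calls are the authors': a gene counts as called at a deposited adjusted p under 0.05. The table of 3 populations names its columns HFSC, CD34a6 and bulk. Bulk was read as total epidermal cells. The labels do not say which of HFSC and CD34a6 holds purified and which holds cultured stem cells, so the column names are kept and state nothing about culture. The summed level of the bulge markers Cd34, Lhx2, Krt15, Sox9 and Lgr5 was 104 FPKM in HFSC, 10771 in CD34a6 and 4832 in bulk. Krt15 alone made up 9923 FPKM of the CD34a6 sum and 4791 of the bulk sum, while Sox9 led in HFSC at 55.2. Most of the CD34a6 and bulk sums was thus Krt15, so their order need not be that of each marker. Outside Krt15, the rest of the CD34a6 sum still exceeded the whole HFSC sum, while the rest of the bulk sum was below it. The values of Cd34, Lhx2 and Lgr5 are not given here. Since each table had its own normalisation, no level is compared between tables.

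Semaphorins signal through plexins, and secreted class 3 semaphorins mostly need a neuropilin to bind them. Ephrins and Eph receptors both sit in the membrane, so they signal between touching cells and in both directions, with A ephrins anchored by lipid and B ephrins spanning the membrane. Slits signal through Robos, and netrins through the receptors of the Dcc and Unc5 families. All of them act on the actin cytoskeleton and on adhesion, and in skin they are known for steering nerves and vessels, for sorting epithelial cells and for keratinocyte growth and differentiation.

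The stretches of DNA in front of 3 of the genes are shown because these genes carried the clearest differences: Efnb2 was the only member called in 4 of the 5 comparisons, and Sema3e and Nrp2 had the largest fold of the members in either direction between HFSC and CD34a6, on the log2 scale with a pseudocount of 1 FPKM. Each is the 250 bases before the RefSeq transcript start on GRCm38.p6, read 5′ to 3′ on the strand of the gene, and capitals mark a match to GGCGCC, the GC-rich element described for SMAD proteins in BMP response genes.
Efnb2 (chr8:8661243-8661492, minus strand): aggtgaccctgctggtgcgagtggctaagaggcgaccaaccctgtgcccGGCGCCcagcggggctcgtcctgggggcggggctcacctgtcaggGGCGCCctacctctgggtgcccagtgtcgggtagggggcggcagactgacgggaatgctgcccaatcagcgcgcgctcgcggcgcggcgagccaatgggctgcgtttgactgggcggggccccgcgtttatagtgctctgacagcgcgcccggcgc
Sema3e (chr5:14025026-14025275, plus strand): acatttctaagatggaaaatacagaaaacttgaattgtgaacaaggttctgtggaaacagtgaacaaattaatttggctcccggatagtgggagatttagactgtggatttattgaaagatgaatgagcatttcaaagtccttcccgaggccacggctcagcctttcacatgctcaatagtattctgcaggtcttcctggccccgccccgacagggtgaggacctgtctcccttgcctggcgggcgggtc
Nrp2 (chr1:62703067-62703316, plus strand): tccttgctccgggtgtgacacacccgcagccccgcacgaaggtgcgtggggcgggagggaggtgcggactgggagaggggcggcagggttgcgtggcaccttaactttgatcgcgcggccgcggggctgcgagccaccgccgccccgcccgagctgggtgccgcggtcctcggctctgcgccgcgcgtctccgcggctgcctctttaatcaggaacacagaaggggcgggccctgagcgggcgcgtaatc
The Efnb2 window held 2 matches, at 201 to 196 and at 156 to 151 bases before the start, and the Sema3e and Nrp2 windows held none. GGCGCC, which reads alike on both strands, stood in 18.1% of the 72 windows found for 56 of the members and in 9.59% of all 32851 windows. The member windows were richer in G and C, with a median of 64.2% against 52.4% for all windows, and were at 72% for Efnb2, 48% for Sema3e and 72.4% for Nrp2. On either strand, the GLI box GACCACCCA was found in 0 of the member windows and 0.225% of all windows. The LIM homeodomain core TAATTA was in 4.17% and 4.84%, the AP-1 element TGANTCA in 4.17% and 6.75%, and the hypoxia element core ACGTG in 16.7% and 16.6%. A match describes letters only and is no evidence of binding, and the lack of one says nothing about the factor. The deposited locus of Efnb2 (chr8:8617434-8660773) begins downstream of this RefSeq start. That of Sema3e (chr5:14025276-14256689) begins at the base after its window. The locus of Nrp2 (chr1:62703285-62818695) begins inside its window, so the last bases shown for Nrp2 lie within the deposited locus.

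In the table of 3 populations, 43 of the 63 members reached 1 FPKM in at least 1 population, 34 reached 5 FPKM and 29 reached 10 FPKM. By column, 33 reached 1 FPKM in HFSC, 38 in CD34a6 and 36 in bulk. The highest value lay in HFSC for 8 of these 43 genes, in CD34a6 for 24 and in bulk for 11. The same split over all loci is not given here, so it is not read as particular to the members. The other 20 members stayed at 0.936 FPKM or less, and 3 of them were listed at 0 in all populations. Summed over the members the level was 707.1 FPKM in HFSC, 1290.7 in CD34a6 and 1087.2 in bulk. Over all loci of the table the sums were 482169, 406712 and 917071 FPKM in the same columns, so the share that the members hold depends on these totals too.

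**Figure D1:**
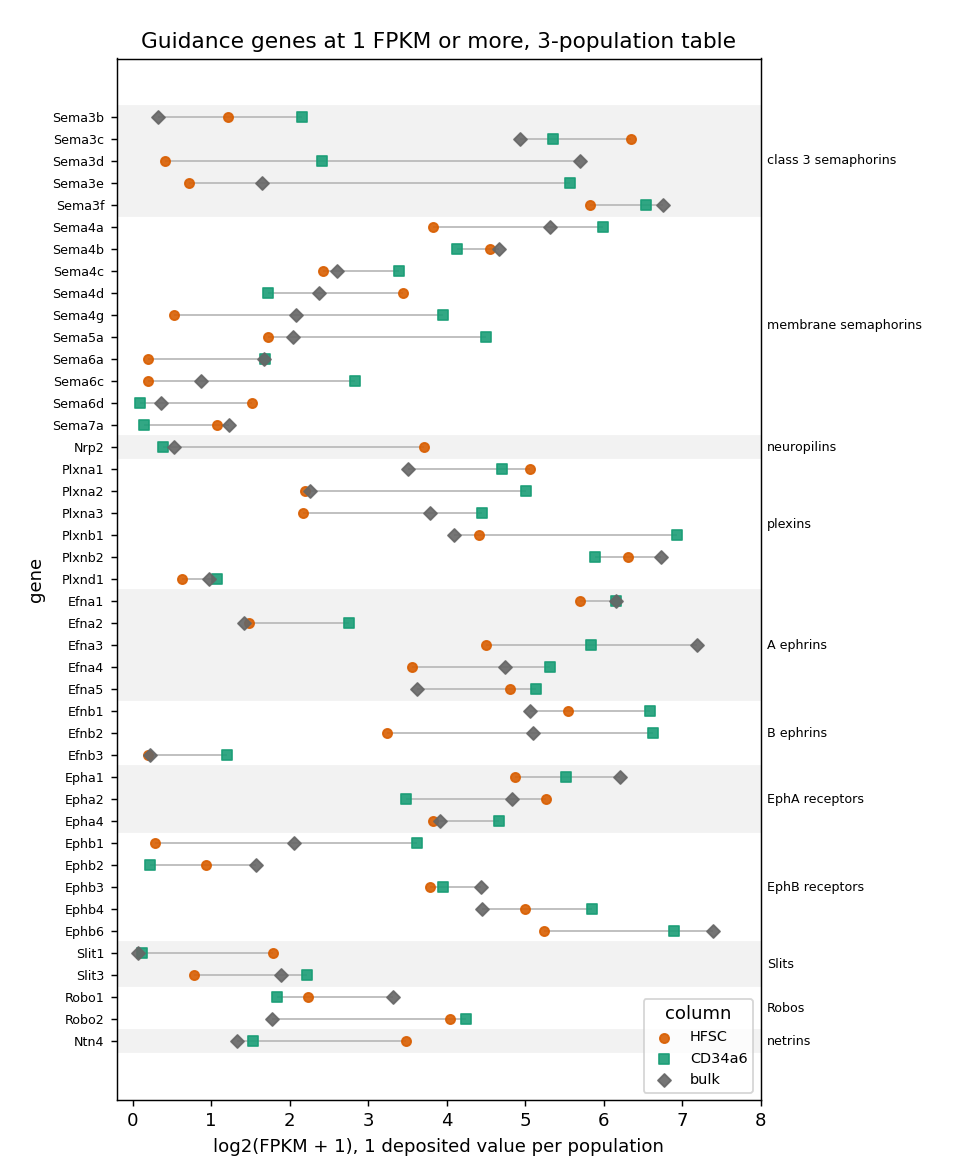
Levels of the 43 guidance genes at 1 FPKM or more in the table of 3 populations. The x axis is log2(FPKM + 1). Each symbol is the 1 deposited value of a population (circle HFSC, square CD34a6, diamond bulk), so no error can be drawn. The square lies farthest to the right for 24 genes, the circle for 8 and the diamond for 11, with no such split of all loci beside it.

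Against bulk, CD34a6 had more guidance genes higher than lower, and HFSC had more lower than higher. Of 44 members tested between CD34a6 and bulk, 20 were called higher and 8 lower (45.5% and 18.2%), against 22.0% higher and 24.4% lower of all 14437 loci tested. The median log2 fold of these members was 0.62, and that of all tested loci was 0.00. Of 46 members tested between HFSC and bulk, 9 were higher and 18 lower (19.6% and 39.1%), against 19.0% and 24.7% of all 14032 loci, with a median of -0.25 for the members and -0.11 for all loci. Between HFSC and CD34a6 the authors tested 47 members, and 13 were higher and 28 lower in HFSC (27.7% and 59.6%), against 25.2% and 29.0% of all 13958 loci, with medians of -0.71 and -0.07. These medians use a pseudocount of 1 FPKM, which shrinks the folds of low genes. The 3 comparisons share their populations and are not independent of each other. Members that the authors left untested were at 0.335 FPKM or less in the populations compared, so these shares are not shares of all 63.

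**Figure D2:**
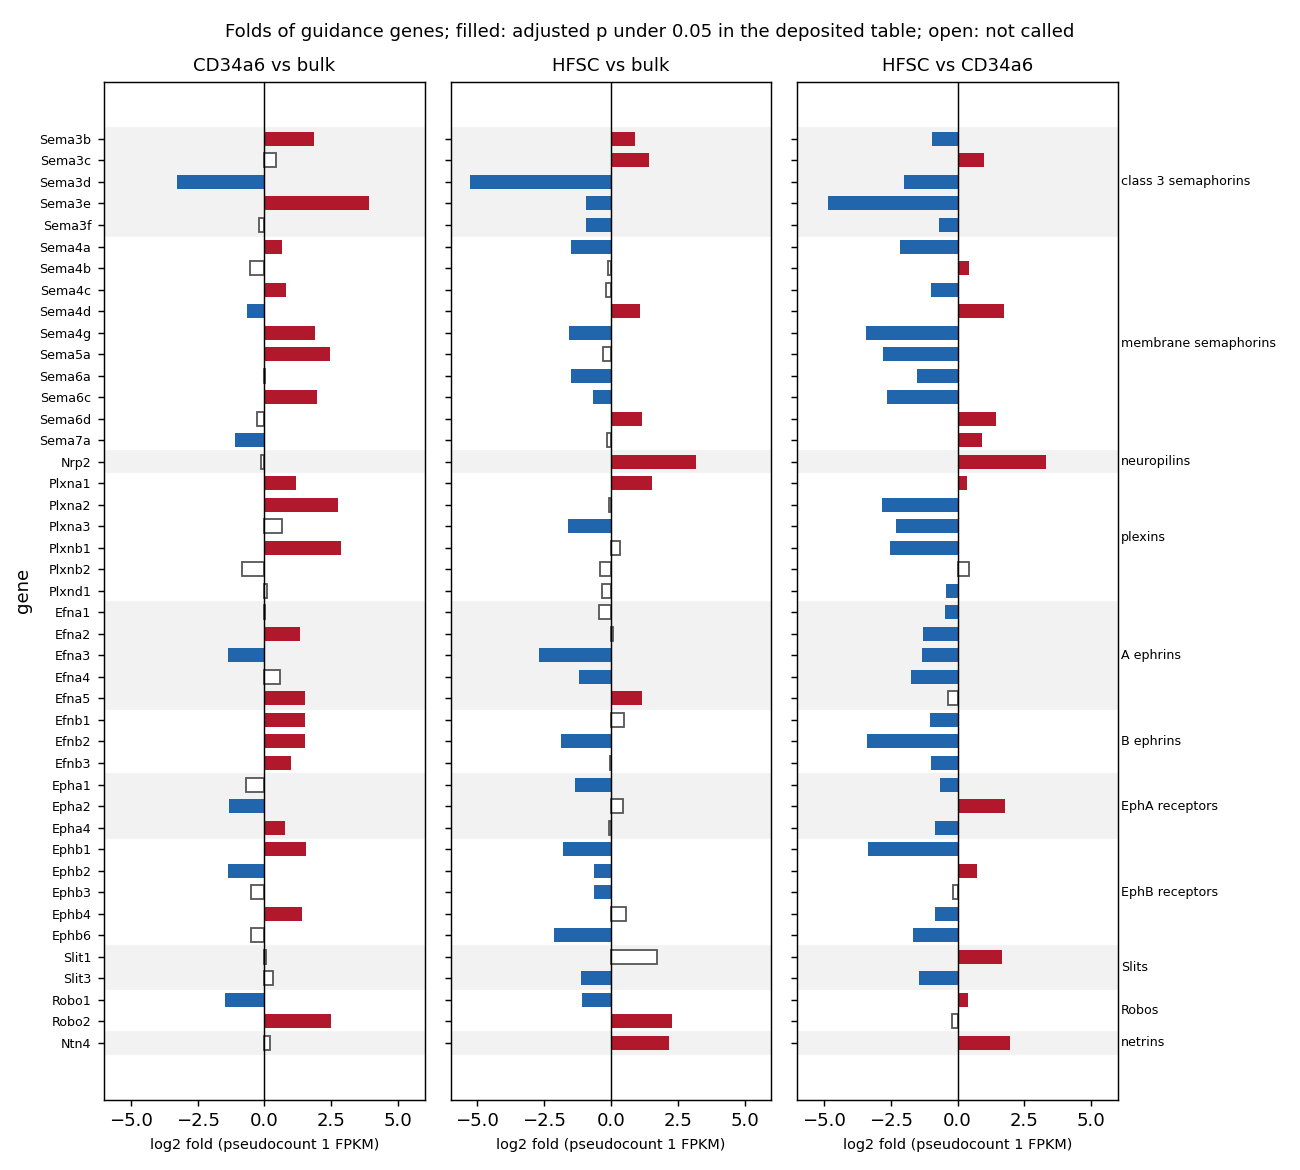
Log2 folds, with a pseudocount of 1 FPKM, of the same guidance genes in the 3 comparisons of that table, by family. Red bars are members called higher and blue bars members called lower at a deposited adjusted p under 0.05, and open bars were not called; the right panel, HFSC against CD34a6, holds most of the blue bars.

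Guidance genes were longer than the rest: their median exonic length was 6848 nt, against 3987 nt for all tested genes of the CD34a6 and bulk comparison. Among 4019 other genes between 4657 and 8916 nt, the middle range of the members, CD34a6 had 30.3% called higher and 17.6% called lower than bulk, with a median log2 fold of 0.29. In HFSC against bulk such genes were higher for 25.5% and lower for 18.9%, and in HFSC against CD34a6 they were higher for 25.7% and lower for 32.7%. The part of length in the members' counts was not tested. Loci of 31 members overlap another row of the table. Without them CD34a6 had 11 members higher and 4 lower than bulk, and HFSC had 3 higher and 11 lower than bulk. Against CD34a6, HFSC then had 7 higher and 15 lower. How many of the remaining members were tested is not given here, so these counts are not set against the shares of all loci.

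Markers of other cell types differed between the populations as well. Endothelial markers, the cells in which several of these receptors are best known, summed to 1.33 FPKM in HFSC, 2.36 in CD34a6 and 0.969 in bulk over 7 genes, with Cdh5 and Emcn at 0 in HFSC and Emcn at 0 in bulk. Pecam1 was called higher in HFSC (0.955 FPKM) than in CD34a6 (0.260) and bulk (0.203), at deposited adjusted p of 0.000932 and 0.000404. Tek was called lower in HFSC (0.0624 FPKM) than in CD34a6 (1.17), at 0.000212. The leading gene was Pecam1 in HFSC, Tek in CD34a6 and Vwf in bulk. The 5 immune markers summed to 1.29, 5.29 and 316 FPKM in that order of columns, with Ptprc at 0 in HFSC. The 6 fibroblast markers summed to 0.597, 33.1 and 4.35 FPKM, with Col3a1 and Lum at 0 in HFSC and in CD34a6, and 22.4 FPKM of the CD34a6 value was Col1a1. The 4 mural markers summed to 67.8, 67.9 and 5.98 FPKM, which was mostly Acta2 in HFSC (62.1 FPKM) and Cspg4 in CD34a6 (67.6 FPKM), with Pdgfrb at 0 in CD34a6. The 5 melanocyte markers summed to 0.593, 8.37 and 6.87 FPKM, with none at 0. Dct made up 7.29 FPKM of the CD34a6 sum and was called higher there than in bulk, while Tyrp1 was called lower and Pmel, Tyr and Mlana had lower values than in bulk. The 6 Schwann and glial markers summed to 16.5, 31.1 and 54.6 FPKM and were led by Erbb3, with S100b at 0 in HFSC. The keratinocyte markers Krt5, Krt14, Trp63 and Epcam summed to 15363, 8069 and 8524 FPKM. The part of such cells in the results below was not tested, and in bulk RNA fewer cells of a type and less RNA per cell cannot be told apart.

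Class 3 semaphorins, the secreted ligands, differed in order between the populations. Sema3e, a ligand of plexin-D1, was at 0.643 FPKM in HFSC, 46.7 in CD34a6 and 2.14 in bulk. It was 21.8-fold higher in CD34a6 than in bulk, and 3.33-fold lower in HFSC than in bulk, each at a deposited adjusted p of 0.000212. Between the stem cell columns it was 72.6-fold lower in HFSC, with the same adjusted p. Sema3d was the counterpart in bulk, at 0.334 FPKM in HFSC, 4.30 in CD34a6 and 50.8 in bulk. It was lower than bulk 152-fold in HFSC and 11.8-fold in CD34a6 (adjusted p 0.000212 for each in the authors' deposited table). Sema3c, a neuropilin ligand, ran the other way with 80.5 FPKM in HFSC, 39.9 in CD34a6 and 29.5 in bulk. Its level in HFSC was 2.02-fold that in CD34a6 and 2.73-fold that in bulk (0.000212 for each), and CD34a6 did not pass against bulk (0.178). Sema3f, which binds neuropilin-2, was abundant everywhere at 55.8, 92.0 and 107 FPKM in HFSC, CD34a6 and bulk, and was called lower in HFSC against both others (deposited adjusted p 0.00684 against CD34a6 and 0.00952 against bulk). Sema3b was low, at 1.31, 3.46 and 0.249 FPKM, and was called higher in both stem cell columns than in bulk. The leading ligand was another gene in HFSC than in the other columns: Sema3c made up 58.1% of the summed class 3 level in HFSC, and Sema3f 49.3% in CD34a6 and 56.4% in bulk, with Sema3e at 25.0% in CD34a6 and Sema3d at 26.7% in bulk.

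Of the 13 membrane semaphorins 9 were tested between CD34a6 and bulk, and 5 were called higher and 2 lower in CD34a6, against 22.0% and 24.4% of all loci. Between HFSC and CD34a6, 4 of 10 tested were higher and 6 lower in HFSC, against 25.2% and 29.0% of all loci. Their summed levels were 56.2 FPKM in HFSC, 136 in CD34a6 and 83.7 in bulk. Sema4a, a ligand of B plexins that also acts on immune cells, was the most abundant in CD34a6 and bulk with 13.2, 62.7 and 39.0 FPKM in HFSC, CD34a6 and bulk. It was called higher in CD34a6 than in bulk only narrowly (deposited adjusted p 0.0456) and was 2.96-fold lower in HFSC than in bulk (0.000212). Sema4g was at 0.439, 14.5 and 3.23 FPKM in the same order, Sema5a at 2.31, 21.8 and 3.12, and Sema6c, a plexin-A ligand, at 0.144, 6.13 and 0.833. All 3 were higher in CD34a6 than in bulk, by 4.51-, 6.98- and 7.35-fold, and lower in HFSC than in CD34a6, by 33.1-, 9.41- and 42.4-fold (adjusted p 0.000212 for each in the authors' deposited table). Sema4c followed more weakly with 4.35, 9.53 and 5.08 FPKM (0.0316 for CD34a6 against bulk), at a locus that also holds Fam178b. Sema6a was at 0.140 FPKM in HFSC, 2.23 in CD34a6 and 2.18 in bulk, and was called lower in HFSC against each of them. Sema4d, the ligand of plexin-B1 and plexin-B2, had the opposite order with 9.93 FPKM in HFSC, 2.31 in CD34a6 and 4.19 in bulk, and was the only member called higher in HFSC and lower in CD34a6 than in bulk (deposited adjusted p 0.00321 and 0.0373). Sema6d, a ligand of plexin-A1, was low but likewise highest in HFSC at 1.88, 0.0687 and 0.281 FPKM, and Sema7a, a lipid-anchored ligand of plexin-C1 and integrins, was at 1.108, 0.1098 and 1.35 FPKM. Sema4b was near 20 FPKM in all: 22.4 in HFSC, 16.5 in CD34a6 and 24.3 in bulk. Neither stem cell column passed against bulk, and HFSC was called 1.36-fold higher than CD34a6 (deposited adjusted p 0.0242).

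Of the neuropilins, Nrp2 in the HFSC column had a level above 1 FPKM. Nrp2, the co-receptor for Sema3f and Sema3c, was at 12.1 FPKM in HFSC, 0.305 in CD34a6 and 0.443 in bulk. It was 39.5-fold higher in HFSC than in CD34a6 and 27.2-fold higher than in bulk, at a deposited adjusted p of 0.000212 for each. Nrp1 stayed under 1 FPKM in all 3.

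Plexins, the semaphorin receptors, fell into several patterns. Plxnb1, the receptor of Sema4d, was at 20.3 FPKM in HFSC, 121.6 in CD34a6 and 16.0 in bulk. It was 7.58-fold higher in CD34a6 than in bulk and 5.98-fold lower in HFSC than in CD34a6 (adjusted p 0.000212 for each in the authors' deposited table), and HFSC did not pass against bulk (0.333). Plxnb2 was the most abundant plexin in HFSC and bulk, at 78.1 FPKM in HFSC, 58.2 in CD34a6 and 104.9 in bulk, and none of its 3 comparisons passed, with the lowest deposited adjusted p at 0.0716. Plxna2 had the shape of Plxnb1 with 3.58, 31.3 and 3.78 FPKM, and was 8.28-fold higher in CD34a6 than in bulk and 8.74-fold lower in HFSC than in CD34a6 (0.000212 for each). Plxna1 was instead higher than bulk in both: 32.4 FPKM in HFSC and 25.1 in CD34a6, against 10.4 in bulk, or 3.12- and 2.41-fold higher (0.000212 for each). Plxna3 was at 3.51, 21.0 and 12.8 FPKM and was called lower in HFSC against both others. Plxnd1, the receptor of Sema3e, was low throughout at 0.545, 1.102 and 0.957 FPKM, and was called lower in HFSC than in CD34a6 (deposited adjusted p 0.0357). Summed, plexins were at 138 FPKM in HFSC, 258 in CD34a6 and 149 in bulk.

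The 3 B ephrins were all called higher in CD34a6 than in bulk, against 22.0% of all loci. All 3 were called lower in HFSC than in CD34a6, against 29.0% of all loci. They summed to 54.5 FPKM in HFSC, 194.3 in CD34a6 and 65.8 in bulk. Efnb2, the ligand of EphB4 and a marker of arterial endothelium, was at 8.45 FPKM in HFSC, 98.0 in CD34a6 and 33.3 in bulk. It was 2.94-fold higher in CD34a6 than in bulk (deposited adjusted p 0.000404), 3.94-fold lower in HFSC than in bulk and 11.6-fold lower in HFSC than in CD34a6 (0.000212 for each). Efnb1 was at 45.9, 95.1 and 32.3 FPKM in HFSC, CD34a6 and bulk and was 2.94-fold higher in CD34a6 than in bulk (0.000212), while HFSC, at 1.42-fold bulk, did not pass. Efnb3 was at 0.145, 1.30 and 0.167 FPKM. Of the 5 A ephrins, CD34a6 had 2 higher and 1 lower than bulk, against 22.0% and 24.4% of all loci. HFSC had 1 higher and 2 lower than bulk, against 19.0% and 24.7% of all loci. HFSC had 0 higher and 4 lower than CD34a6, where 25.2% and 29.0% of all loci were called higher and lower. Efna3 was highest in bulk, at 21.7 FPKM in HFSC, 56.2 in CD34a6 and 144.7 in bulk, and was lower than bulk 6.65-fold in HFSC and 2.57-fold in CD34a6 (deposited adjusted p 0.000212 and 0.00219). Efna5 was higher than bulk in both, with 26.9 FPKM in HFSC and 34.3 in CD34a6, against 11.4 in bulk (0.00158 and 0.000212), and the 2 stem cell columns did not pass against each other (0.139). Efna2 was at 1.795, 5.77 and 1.67 FPKM, and was called higher in CD34a6 than in bulk and lower in HFSC than in CD34a6. Efna4 was at 10.8, 38.8 and 25.8 FPKM, at a locus that also holds Adam15, and its call against bulk in HFSC (0.0467) was lost when p was adjusted over that pair alone (0.0515). Efna1, the main ligand of EphA2, was even at 50.8, 70.5 and 70.2 FPKM and passed only between HFSC and CD34a6 (0.00952).

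**Figure D3:**
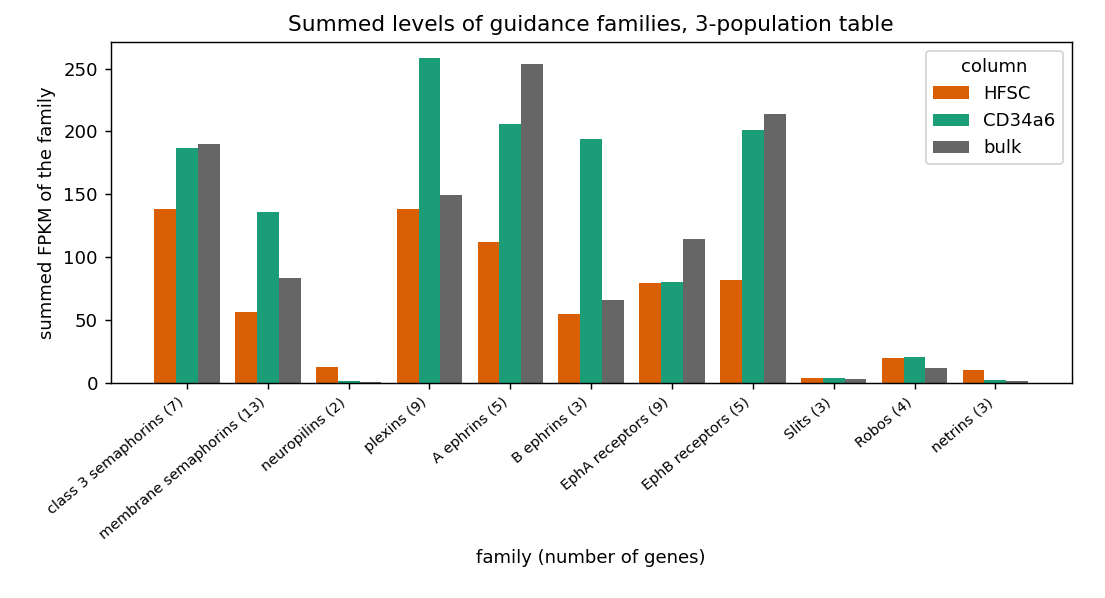
Summed FPKM of each family in HFSC (left bar), CD34a6 (middle) and bulk (right), with the number of genes in brackets. Bars start at 0 and are sums of 1 deposited value per gene, so they carry no error; B ephrins (54.5, 194.3 and 65.8 FPKM) and plexins (138, 258 and 149 FPKM) peak in CD34a6, neuropilins and netrins in HFSC, and A ephrins and EphA and EphB receptors in bulk.

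The EphA receptors were carried by 3 of 9 genes. Epha2, a receptor of epidermal keratinocytes, was at 37.6 FPKM in HFSC, 10.2 in CD34a6 and 27.4 in bulk, and was 2.68-fold lower in CD34a6 than in bulk and 3.68-fold higher in HFSC than in CD34a6 (adjusted p 0.000212 for each in the authors' deposited table). Epha1 had another order, at 28.4, 45.1 and 72.8 FPKM, and was 2.57-fold lower in HFSC than in bulk (0.000761); its locus also holds Zyx. Epha4, which binds ephrins of both classes, was at 13.1, 24.5 and 14.1 FPKM, and was called higher in CD34a6 than in bulk (0.0352). The other 6 EphA genes stayed under 1 FPKM.

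Of the EphB receptors none was called higher in HFSC than in bulk and 4 of 5 were called lower, against 24.7% of all loci. Ephb6, a receptor whose kinase domain is inactive, was the most abundant guidance gene of bulk, at 36.9 FPKM in HFSC, 118.7 in CD34a6 and 167.1 in bulk. It was 4.53-fold lower in HFSC than in bulk (adjusted p 0.000212 in the authors' deposited table), and CD34a6 did not pass against bulk (0.155). Ephb4, the receptor of Efnb2, was at 30.9, 56.9 and 20.9 FPKM, and was 2.72-fold higher in CD34a6 than in bulk (0.000212); its locus also spans Zan. Ephb4 and its ligand were thus both highest in CD34a6. Ephb1 was at 0.213 FPKM in HFSC, 11.3 in CD34a6 and 3.16 in bulk, 53.1-fold lower in HFSC than in CD34a6 and 3.57-fold higher in CD34a6 than in bulk (0.000212 for each), at a locus that also holds 9630041A04Rik. Ephb3 was at 12.9, 14.4 and 20.8 FPKM, with a narrow call in HFSC against bulk (0.0453) that was lost when p was adjusted over that pair alone (0.0501). Ephb2 was low at 0.912, 0.165 and 1.98 FPKM and was called lower than bulk in both.

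Of the Robos, the receptors of Slits, 2 of 4 reached 1 FPKM. Robo2 stood at 15.5 FPKM in HFSC and 18.1 FPKM in CD34a6, against 2.42 in bulk, which was 6.38- and 7.45-fold higher (adjusted p 0.000404 and 0.000212 in the authors' deposited table). Robo1 was the reverse, at 3.69 FPKM in HFSC and 2.57 FPKM in CD34a6, against 9.01 in bulk, or 2.44- and 3.50-fold lower (0.000761 and 0.000212). Of the summed Robo level, Robo2 made up 78.5% in HFSC and 87.5% in CD34a6, while Robo1 made up 78.7% in bulk. Of their ligands, Slit1 was at 2.46 FPKM in HFSC, 0.0818 in CD34a6 and 0.0468 in bulk and was 30.1-fold higher in HFSC than in CD34a6 (0.000212), while HFSC did not pass against bulk (0.128). Slit3 was at 0.724, 3.65 and 2.71 FPKM and was called lower in HFSC against both others. Ntn4, a netrin that binds laminin in basement membranes, was at 10.2 FPKM in HFSC, 1.89 in CD34a6 and 1.51 in bulk, 5.41-fold higher in HFSC than in CD34a6 and 6.77-fold higher than in bulk (0.000212 for each).

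Read by gene, 13 members were called in all 3 comparisons of this table. Set against bulk, 4 members were higher in both stem cell columns (Efna5, Plxna1, Robo2 and Sema3b) and 4 were lower in both (Efna3, Ephb2, Robo1 and Sema3d). There were 6 members higher in CD34a6 and lower in HFSC, namely Efnb2, Ephb1, Sema3e, Sema4a, Sema4g and Sema6c, and Sema4d alone had the opposite combination. These counts share the bulk column, and the same overlaps over all loci are not given here. They are therefore not read as particular to the guidance genes. Split by role, and against bulk, 12 of 25 tested ligands were higher and 4 lower in CD34a6, and 8 of 19 tested receptors were higher and 4 lower, where 22.0% and 24.4% of all loci were. In HFSC against CD34a6, 8 of 28 tested ligands were higher and 19 lower, and 5 of 19 tested receptors were higher and 9 lower, where 25.2% and 29.0% of all loci were.

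Co-receptors and downstream partners of these genes were taken from a list of 58 symbols, of which 56 were in the tables on 57 loci. Against bulk, 18 of 51 tested were higher and 10 lower in CD34a6, and 22 of 49 were higher and 10 lower in HFSC, with median log2 folds of 0.47 and 0.72. Over all loci 22.0% were higher and 24.4% lower in CD34a6, and 19.0% and 24.7% in HFSC, with medians of 0.00 and -0.11. Enah, an actin-assembly factor, stood at 225 FPKM in HFSC and 131 FPKM in CD34a6, against 17.2 in bulk, and Evl of the same family was at 16.7 and 28.5 FPKM, against 3.08 in bulk. Farp1, a plexin-A partner, was at 28.5 FPKM in CD34a6, against 2.39 in bulk, and Neo1, a receptor of netrins and repulsive guidance molecules, was at 43.4 against 10.6. Flrt2, a ligand of Unc5 receptors, was at 94.9 FPKM in HFSC, against 13.3 in bulk, while Rgmb, a ligand of Neo1 and a BMP co-receptor, was at 8.41 against 54.2 and Srgap2, a Robo effector, at 12.3 against 47.8. Between the stem cell columns 17 of 51 tested were higher and 17 lower in HFSC, against 25.2% and 29.0% of all loci, with Vav3, an exchange factor downstream of Eph receptors, among the higher ones at 33.1 FPKM in HFSC and 6.42 FPKM in CD34a6, and Rgma, a ligand of Neo1, among the lower ones at 7.57 FPKM and 45.7 FPKM. Each gene named in this paragraph was called in the comparison given, at a deposited adjusted p of 0.000932 or less.

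In the sorted fractions of 3C cultures, guidance genes were called about as often as other loci. Of the 63, 33 reached 1 FPKM, and the higher value was in CD34+ for 26 of them and in CD34neg for 7. Such a split of all loci is not given here. The authors tested 29 members and called 2 higher and 0 lower in CD34+, against 2.08% higher and 4.72% lower of all 11366 loci tested. At an unadjusted p under 0.05 the deposited table had 7 members higher and 0 lower, against 988 higher and 1578 lower of all 11366 loci, and no other tool was run. The members' median log2 fold was 0.36 and that of all tested loci was -0.07.

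Both called genes of the fractions were ephrins. Efnb2 was at 18.3 FPKM in CD34+ and 7.01 in CD34neg, 2.61-fold higher (adjusted p 0.00275 in the authors' deposited table). Efna5 was at 33.6 FPKM in CD34+ and 15.3 in CD34neg, 2.19-fold higher, with an adjusted p of 0.0459. Below the threshold, 3 plexins at 5 FPKM or more had higher values in CD34+: Plxna1 at 17.6 against 10.0 FPKM (0.0617), Plxnb1 at 12.8 against 8.32 (0.217) and Plxnb2 at 25.4 against 17.3 (0.260). Sema3f was at 7.58 FPKM in CD34+ and 3.89 in CD34neg (0.0957), and Nrp2 at 13.1 and 8.90 (0.258). Epha4 was at 12.7 FPKM in CD34+ and 18.9 in CD34neg (0.381), the largest fold in favour of CD34neg among the members at 5 FPKM or more. Sema3c, the most abundant member in both, was at 47.3 and 39.1 FPKM (0.521), and Robo2 at 27.4 and 21.1 (0.551). The other members at 5 FPKM or more, among them Sema4b, Efna1, Ephb6 and Ntn4, had deposited adjusted p from 0.206 to 0.988. The bulge markers summed to 177 FPKM in CD34+ and 48.5 in CD34neg, and Acta2 was at 31.8 and 12.9. The part of such markers in the 2 calls was not tested. Endothelial markers, of which Efnb2 is typical in arteries, summed to 0.739 FPKM in CD34+ and 0.644 in CD34neg, with Cdh5 at 0 in both.

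In the inhibitor table too the members were called about as often as other loci. Of 36 members at 1 FPKM or more, the higher value was with dorsomorphin for 21 and with cyclopamine for 15, with no such split of all loci given here. The authors tested 35 members and called 1 higher and 0 lower with dorsomorphin, against 1.26% higher and 1.31% lower of all 11500 loci. At an unadjusted p under 0.05, 4 were higher and 1 lower, against 716 and 736 of all 11500 loci, and no other tool was run. The median log2 fold of the members was 0.03 and that of all tested loci was -0.02. The called gene was Sema6d, at 7.96 FPKM with dorsomorphin and 3.41 with cyclopamine, 2.33-fold higher (adjusted p 0.00479 in the authors' deposited table). Its locus (chr2:124089969-124667770) also covers the transcripts 4930517E11Rik and 4930583P06Rik, and without such overlapping loci 0 members were called. Beside it, Acta2 was at 6.95 FPKM with dorsomorphin and 3.14 with cyclopamine, Cspg4 at 0.723 and 1.899 and Krt15 at 3.61 and 20.6 (deposited adjusted p 0.00479 for each), and Col3a1 at 2.30 and 0.111 (0.429). The summed levels with dorsomorphin and cyclopamine were 8.18 and 5.33 FPKM for the mural list and 5.39 and 2.23 for the fibroblast list. For the bulge list they were 62.3 and 81.3 FPKM, a difference that was mostly Krt15. Sox9, the leading bulge marker, went the other way, at 50.6 FPKM with dorsomorphin and 47.2 with cyclopamine. The part of such markers was not tested. Sema4d was at 12.7 FPKM with dorsomorphin and 8.94 with cyclopamine (0.0869), Plxna2 at 5.26 and 7.89 (0.0828), Epha2 at 31.3 and 23.7 (0.258) and Nrp2 at 30.2 and 25.7 (0.501). Efnb2 and Efna5, the calls of the sorted fractions, were at 25.9 and 34.8 FPKM with dorsomorphin and at 22.6 and 37.5 with cyclopamine, and did not pass (0.602 and 0.930). Sema3c (52.7 and 53.1 FPKM), Plxna1 (23.9 and 24.0), Epha4 (34.9 and 34.9) and Sema4b (42.6 and 42.3) had near-equal values with the compounds. The other 14 members at 5 FPKM or more had deposited adjusted p from 0.525 to 0.990.

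**Figure D4:**
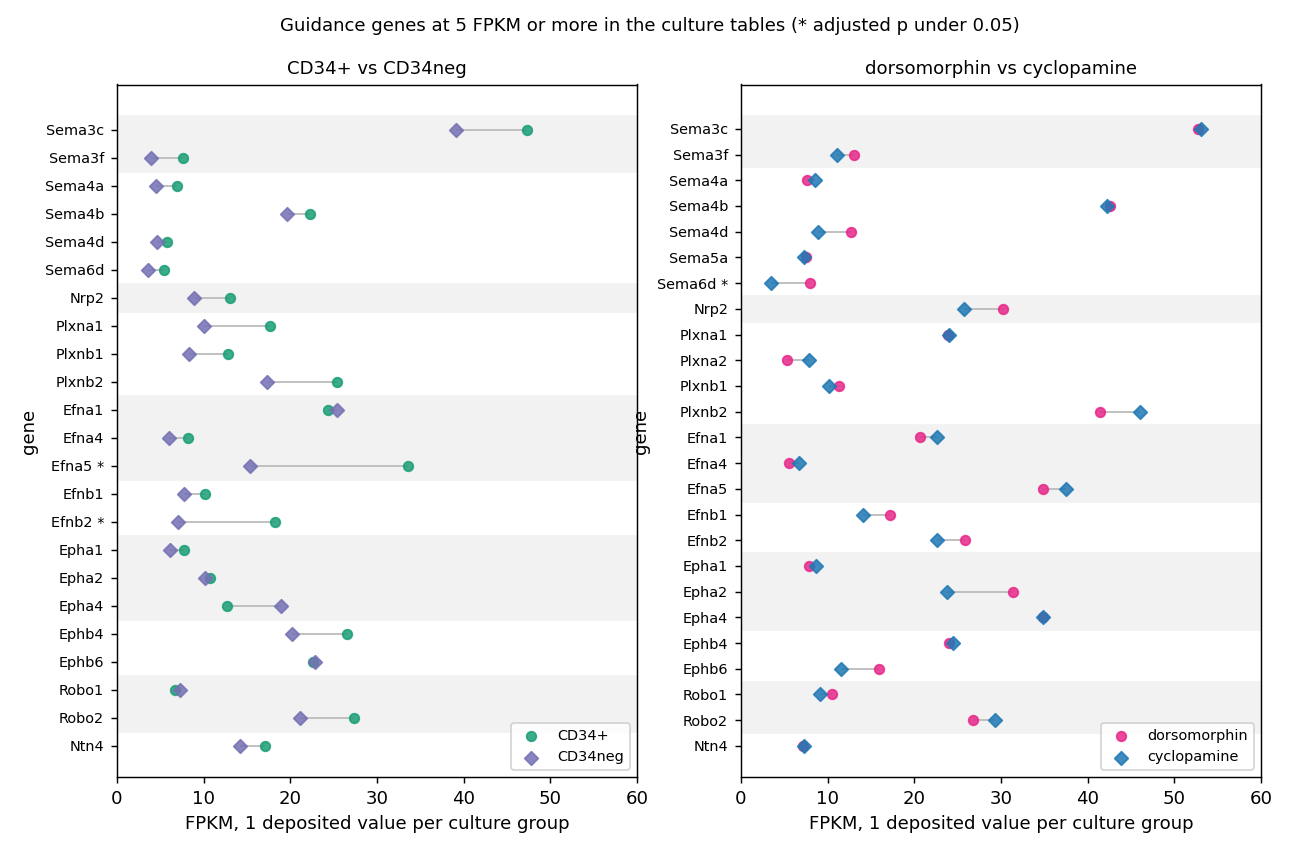
FPKM of guidance genes at 5 FPKM or more in the culture tables: the left panel shows CD34+ (circles) and CD34neg (diamonds) fractions, the right panel cultures with dorsomorphin (circles) and cyclopamine (diamonds). Each symbol is 1 deposited value without error, and stars mark a deposited adjusted p under 0.05: Efna5 and Efnb2 on the left and Sema6d on the right.

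Of the partner list, 2 of 42 tested loci were higher and 1 lower in CD34+ than in CD34neg, against 2.08% and 4.72% of all loci. The higher ones were Farp1, at 6.73 against 1.49 FPKM, and Srgap1, a Robo effector, at 5.42 against 1.89, and the lower one was Vav3, at 20.2 against 39.0 (adjusted p 0.00275, 0.00656 and 0.0161 in the authors' deposited table). With dorsomorphin 1 of 44 was higher, Flrt1 at 4.84 FPKM against 1.91 with cyclopamine, and 1 lower, Gipc1 at 14.8 against 21.9 (0.00479 and 0.0305), against 1.26% and 1.31% of all loci. Farp1, Srgap1 and Flrt1 lay under the level set for naming partners and were named after their values were seen. The direction of a member between CD34a6 and bulk matched its direction between CD34+ and CD34neg for 17 of 28 members tested in both (60.7%), and the share was 64.8% for all 10567 loci. With the same fractions, the shares of members and of all loci were 62.1% and 60.6% for HFSC against bulk and 48.3% and 43.4% for HFSC against CD34a6. With dorsomorphin against cyclopamine they were 43.8% and 52.9% for CD34a6 against bulk, and 48.6% and 56.6% for HFSC against bulk. For HFSC against CD34a6 they were 54.3% and 53.6%.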

How the data were processed

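Polyadenylated RNA of the 7 groups was sequenced with a directional kit, per the labels' protocols. Levels are FPKM estimated by the authors per locus and population, per the file headers. The log2 fold changes, p-values and q-values are also the authors', deposited in 3 tables with the layout of Cuffdiff, where no p-value is under 5e-05. The submitters' processing notes list, for the 3-population table, HISAT 0.1.6, Cuffdiff, Cufflinks 2.2.1, StringTie 1.1.0 and FastQC 0.11.3. For the culture libraries they list TopHat2 2.0.13, cutadapt 1.5, FastQC 0.11.2, DESeq2 1.8.1 and Subread 1.4.2 with featureCounts, and GRCm38 for all. Which of these made the culture tables' p-values is not given in the sources used here. Read depth is unknown, so no counting interval is given.

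Folds were turned so that the population named first is on top, and medians were computed with Python 3.11.15, pandas 2.3.3 and numpy 2.4.6, as log2 of FPKM plus a pseudocount of 1. The planned count test needs a value per library, which the tables lack, so calls are the authors' (q-value under 0.05). Calls were counted with code tested on simulated data. The members and lists were chosen with earlier results of these data known. Members were described singly where called with a higher value of 1 FPKM or more, or at 5 FPKM or more in any population; partners were named where called and at 10 FPKM or more, at most 8 per comparison. Exonic lengths came from GENCODE vM21, and 40 of 63 members had the annotated ends. Coordinates count from 1.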

Additional observations from a re-analysis of the deposited data

How the results depend on the processing

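No direction of a median turned under any alternative run. Counts and medians were each compared once per alternative run that applied to them. Of these 90 comparisons, 71 stayed within 1.5 times of a count or within 0.1 of a median. Leaving out the 31 members whose loci overlap another row, which shortens the list by construction, gave 11 higher and 4 lower for CD34a6 against bulk, 3 and 11 for HFSC against bulk, and 7 and 15 for HFSC against CD34a6 with a median log2 fold of -0.59. It gave a median of 0.18 for CD34+ against CD34neg. For dorsomorphin against cyclopamine it gave 0 higher with a median of 0.19, since Sema6d is among the loci left out. How many of the remaining members were tested is not given here, so these counts cannot be read as shares. With the median of genes in the same band of exonic length subtracted, an alternative chosen after seeing the data, the medians were 0.36 for CD34a6 against bulk, -0.39 for HFSC against bulk and -0.61 for HFSC against CD34a6. The median for HFSC against bulk was -0.35 with a pseudocount of 0.01 and -0.14 after centring on all tested loci. For HFSC against CD34a6 it was -0.89 with a pseudocount of 0.1, and -0.90 both with 0.01 and for members at 1 FPKM or more; the cause was not tested. At an adjusted p under 0.01, 1 member was higher in CD34+, since Efna5 no longer passed. Each called value of a single gene was checked once per alternative setting, so a gene counts several times below. In 29 of these checks the call was lost, in 347 it was not, and in 0 it turned. The losses were 14 at an absolute log2 fold of at least 1, 13 at an adjusted p under 0.01 and 2 with p adjusted over the pair alone. Centring moves the fold and leaves p as it was, so it could not remove a call. Centring on the median of all tested loci turned 7 log2 folds near 0 that were not called: to -0.0068 for Efna1 in CD34a6 against bulk, 0.019 for Epha4 and 0.040 for Plxna2 in HFSC against bulk, 0.019 for Efna1 and 0.067 for Ephb6 in CD34+ against CD34neg, and 0.014 for Plxna1 and 0.012 for Sema3c in dorsomorphin against cyclopamine. With p adjusted over the pair alone the lost calls included Efna4 (0.0515) and Ephb3 (0.0501) in HFSC against bulk.

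No paired analysis was possible because the tables hold 1 value per population, and leaving out a replicate was not run for the same reason. Depth limits what can be said of the members under 1 FPKM.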

Other observations

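Within a column the leading member of a family was often another gene. Sema3c led the class 3 semaphorins in HFSC (80.5 FPKM), in both sorted culture fractions (47.3 FPKM in CD34+ and 39.1 in CD34neg) and with both inhibitors (52.7 FPKM with dorsomorphin and 53.1 with cyclopamine), while Sema3f led in CD34a6 (92.0 FPKM) and bulk (107 FPKM). These are ranks within separately normalised tables, and the levels are not compared between them.

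Some related genes fell outside the symbols chosen. Slitrk6, a synaptic adhesion gene that shares the leucine-rich repeats of Slits, was at 8.16 FPKM in HFSC, 2.42 in CD34a6 and 15.1 in bulk, and in the authors' deposited table it was called lower than bulk in both (adjusted p 0.0138 and 0.000212). Ntn3 shares a row with Tbc1d24, at 0.643, 2.35 and 0.522 FPKM, and cannot be read alone. Ntng2, an anchored netrin, was at 1.47, 0.535 and 0.666 FPKM.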
